A study of Bombyx mori with 64 samples.

Results

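Hemocytes are the free cells of insect blood, and in larvae they engulf and encapsulate foreign bodies, take part in clotting and melanization and remodel tissue at molts. MicroRNAs (miRNAs) are short RNAs that pair with target messenger RNAs and lower their translation or stability, and sets of miRNAs differ widely between tissues. Silkworm hemocytes, collected from fifth-instar larvae on day 3, were represented by 4 arrays of the 64 in the series, chosen by the tissue in their labels. These were 2 RNA specimens, labelled male and female, each hybridized to slides a and b. The question was how their miRNA signals differed from those of the other tissues taken on the same day.

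All larvae were of the bivoltine DaZao strain, reared on mulberry leaves without any treatment or genetic change. The hemocyte (HC) was compared with 16 specimens of 9 tissues on 32 arrays, namely head (HD), body wall (BW), anterior and posterior silk gland (ASG, PSG), midgut (MG), fat body (FB) and malpighian tubule (MT) of both sexes, the ovary (OV) and the testis (TE). Slides a and b carried the same RNA and were averaged, so each sex of a tissue had 1 specimen. How many animals were pooled was not given in the sources used here, so p-values measure the spread between these specimens only.

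Each array carried 106 miRNA probes, SW-1 to SW-106, printed as 3 spots, and gave a scaled signal on a linear scale in array units. The files do not pair the probes with miRNA names or sequences. SW-7 was tied to miR-1, a miRNA of muscle in many animals, through the study's own account of its brightest larval signal. Names that the study's printed ratios or tissue lists may give to other probes are mentioned below for SW-17, SW-59, SW-53 and SW-20 only. No probe was used as a marker of blood cells, and the tissue label was checked only for the near absence of miR-1 signal. SW-7 gave 167 and 183 on the slides labelled male and 2.67 and 12.0 on those labelled female, against 82.5 to 78944 over the 16 other specimens. It was lowest in the hemocyte of all 10 tissues, and its specimens overlapped only those of the posterior silk gland.

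The hemocyte arrays were dim. Of the 318 probe spots on an array, 33.0% to 43.7% had a net signal of 0 or less on the 4 hemocyte arrays, against 0% to 9.75% on the other 32. The summed signal of the 106 probes was 60928 and 64124 in the hemocyte specimens and 84684 to 520084 in the others, so the ranges did not overlap. The scaled U6 control, on which the scaling itself is partly based, lay at 28868 to 30707 on the hemocyte arrays and at 21691 to 30965 on the others. Before scaling, net U6 was 15597 to 30201 on the hemocyte arrays and 7067 to 44904 on the others. Net 5S rRNA was 63441 to 64717 and 62156 to 65147, close to the saturated intensity given in the study's methods. No hemocyte probe spot was near saturation. The identifiers of the hemocyte arrays share a number that no other day 3 tissue has. It was taken here as the hybridization session, which the labels do not state. Tissue and session therefore cannot be told apart, and less miRNA per cell cannot be told apart from less RNA on the slide.

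**Figure D1:**
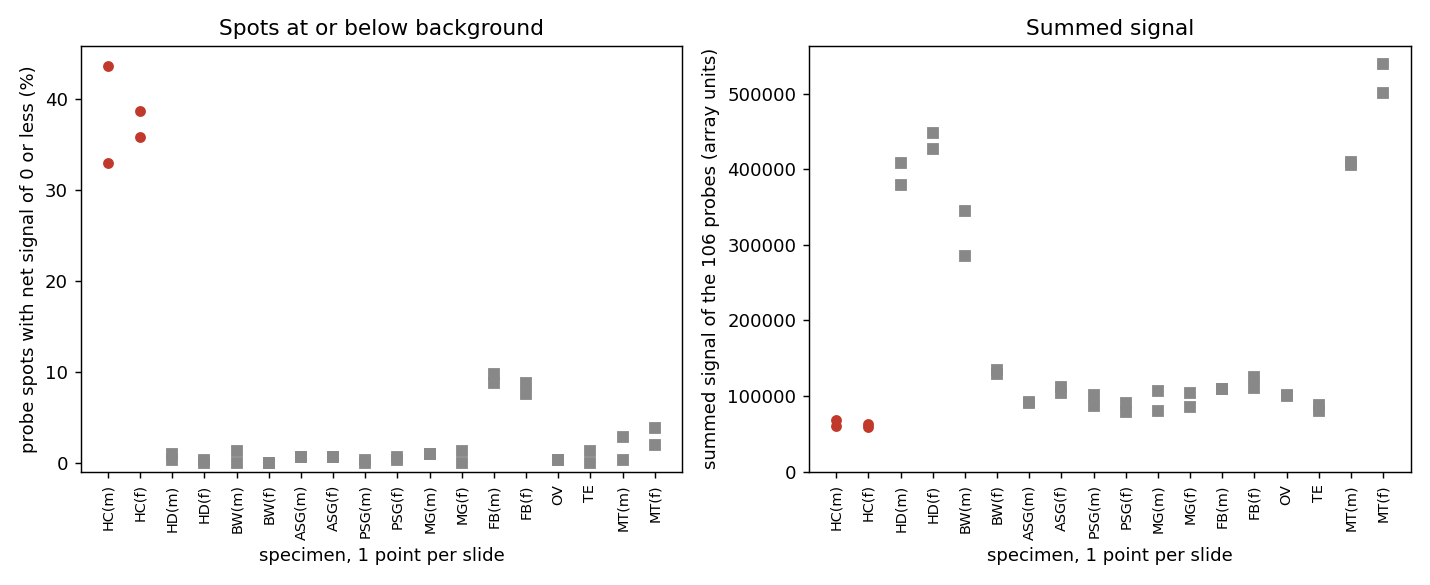
Left, percent of the 318 miRNA probe spots per array with a net signal of 0 or less. Right, summed scaled signal of the 106 probes in array units. Each point is 1 slide, hemocyte in red circles at the left and other tissues in grey squares. The 4 hemocyte arrays lie at 33.0% to 43.7% and below all others in summed signal.

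The labels of the hemocyte sexes ran against a pair of control probes, zip21 and zip23. In the hemocyte the ratio of zip21 to zip23 averaged 2.18 on the slides labelled male and 0.421 on those labelled female, a male over female quotient of 5.18. In the other 7 tissues with both sexes that quotient was between 0.156 in the posterior silk gland and 0.984 in the body wall. The targets of these controls are not given in the sources used here. The specimens are called labelled female and labelled male below, and the tissue comparison uses both.

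A probe counted as expressed at a signal of 1000 or more, the threshold of the study's methods. In the hemocyte 20 of 106 probes were expressed in at least 1 sex and 18 in both, and the same number, 18, reached 1000 on all 4 arrays. Of the hemocyte means, 1 was at 10000 or more, 2 lay from 5000 to under 10000, 16 from 1000 to under 5000, 16 from 100 to under 1000 and 71 under 100. The other tissues had 20 (fat body) to 65 (body wall) expressed probes. No probe was expressed in the hemocyte alone. Of the 20, 12 were expressed in all 10 tissues, whereas 52 further probes were expressed elsewhere and not in the hemocyte. SW-27 was the only probe expressed in all 9 other tissues and not in the hemocyte.

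The hemocyte expressed list lay wholly within that of the head, the body wall and the malpighian tubule. With the ovary it shared 18 probes, 90% of the hemocyte list and 75% of the ovary list. With the fat body it shared 15, which is 75% of either list.

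SW-72 was the brightest hemocyte probe. It gave 9577 and 10336 on the slides labelled male and 12032 and 13164 on those labelled female. Over the 16 other specimens its lowest, median and highest signals were 156, 3730 and 12658. The hemocyte specimens overlapped only those of the malpighian tubule, at 12658 and 9971, and the silk gland was lowest.

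SW-25 gave 5984 and 5799 on the male slides and 4872 and 5814 on the female slides, and SW-58 gave 5313 and 5212 on the male slides and 5494 and 5931 on the female slides. In the other specimens SW-25 ranged from 3115 to 17815 with a median of 6125, and SW-58 from 3119 to 17501 with a median of 5868. Both probes were expressed in all 10 tissues, and the hemocyte lay inside the range of the others. Across the 18 specimens SW-25 and SW-58 were each other's most similar tested probe (Pearson r = 0.98 of log2 signals, a description over specimens that share scaling). The array holds replicate probes for some miRNAs, and which they are was not read from the files.

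SW-20 came next, with 4861 and 4519 on the male slides and 4609 and 4281 on the female slides. In the other specimens it lay at 117 at the lowest, 1320 at the median and 2986 at the highest. All 4 hemocyte arrays were thus above every specimen of the other tissues, of which the head was nearest, at 2744 and 2986. It was expressed in the hemocyte, head, body wall, fat body, ovary and malpighian tubule, and lay at 311 or less in the silk gland, midgut and testis. The study's tissue list marks these same tissues for the form of miR-307 that it detected. It reports the highest level of that form in hemocytes. Whether SW-20 is the probe of that miRNA was not tested.

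The 6 remaining of the 10 brightest probes, SW-55, SW-57, SW-45, SW-46, SW-59 and SW-35, had hemocyte means between 1923 and 2728. SW-55 gave 2631 and 3350 on the male slides and 2450 and 2480 on the female slides, against 585, 1690 and 12160 as the lowest, median and highest of the other specimens. SW-45 gave 2494 and 2878 on the male slides and 2632 and 2241 on the female slides, against 2028, 10707 and 33558 in the others. In the fat body, where SW-45 was the brightest probe of all, it reached 28976 and 33558, so its hemocyte level was among the lowest of any tissue, with the midgut alone below it.

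**Figure D2:**
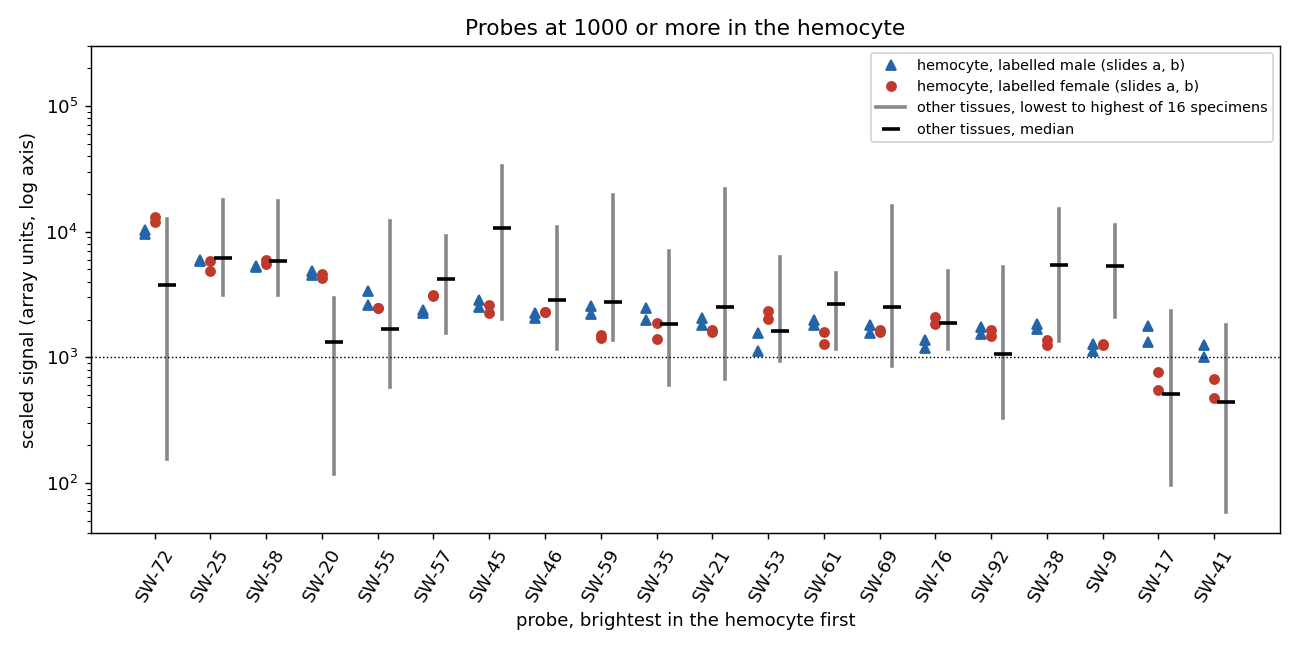
Scaled signal (array units, log axis) of the 20 probes expressed in 1 or both hemocyte specimens. Blue triangles and red circles are the slides labelled male and female, and the grey bar with its black tick gives the lowest, highest and median of the 16 other specimens. SW-20 is the only probe whose 4 hemocyte points all lie above the grey bar. The dotted line marks 1000.

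The 2 hemocyte specimens were close to each other. The median gap over the 20 expressed probes, in log2 units, was 0.30 between the specimens labelled male and female, whereas between slides it was 0.19 in the male and 0.14 in the female. On slide b labelled male, SW-43 gave 807, SW-49 706 and SW-8 437, whereas these gave 16, 34.7 and 32.3 on slide a of the same RNA and at most 32.7 on the female slides. These 3 probes were named after their values were seen.

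The test was made in limma on log2 signals with a floor of 100. It covered the 55 probes that reached 1000 in 2 specimens or more, modelled 10 tissues, and set the hemocyte against the average of the 9 others. At an adjusted p (Benjamini-Hochberg) under 0.05, 4 probes were higher in the hemocyte (7.27% of those tested) and 40 were lower (72.7%), while 11 did not pass. The filter admitted probes expressed in few tissues, such as SW-5 and SW-22 in the body wall and malpighian tubule alone. For such probes a lower call was likely from the filter itself, and no probe entered through the hemocyte alone. The median difference over all tested probes was -1.71 on the log2 scale. Since every difference moves with the scaling of the arrays, the counts describe the signal relative to the U6 and 5S controls, of which 5S was close to saturation. With quantile normalization in place of that scaling 16 were higher and 22 lower, and with every array centred on its median 29 were higher and 13 lower. The hemocyte medians on which the latter rests were 12.8 to 36.0, a background level.

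**Figure D3:**
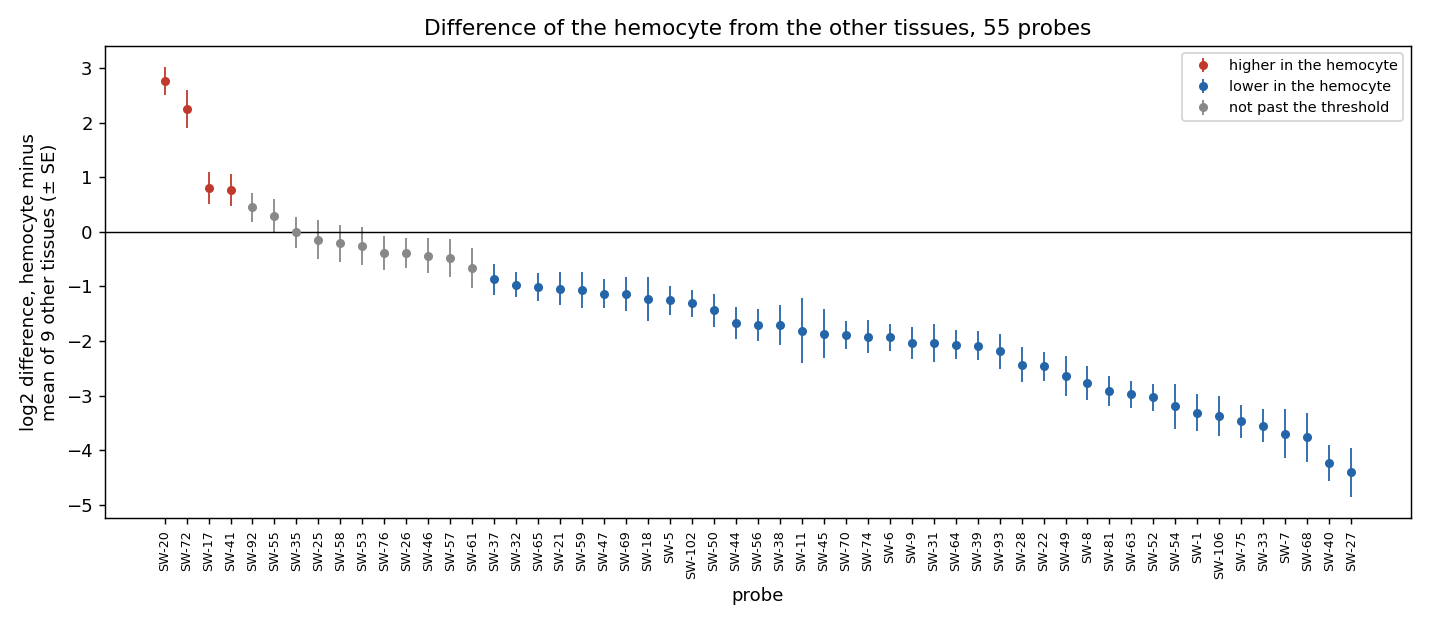
Log2 difference of the hemocyte from the mean of the 9 other tissues for the 55 tested probes, in falling order, with its standard error from limma. Red, blue and grey points are higher, lower and not past the threshold. The differences run from 2.76 for SW-20 to -4.41 for SW-27.

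SW-20 had the largest positive difference. Its signal averaged 4568 ± 173 in the hemocyte (SD, n = 2) and its log2 difference was 2.76 (SE 0.26, adjusted p = 2.53e-08 in limma). In the 9 contrasts with single tissues, which share the hemocyte specimens and were adjusted together over 495 tests, SW-20 was higher than in 8 tissues. The differences on the log2 scale went from 1.34 over the body wall to 4.99 over the posterior silk gland. Against the head the difference was 0.67 with an adjusted p of 0.0939 in limma and did not pass.

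SW-72 averaged 11277 ± 1868 in the hemocyte (SD, n = 2) and had a difference of 2.24 (SE 0.35, adjusted p = 1.12e-05 in limma). On the log2 scale it was higher by 5.68 than in the anterior silk gland, by 6.0 than in the posterior silk gland, by 2.87 than in the body wall, by 1.59 than in the midgut and by 1.56 than in the fat body. Against the malpighian tubule its difference was -0.01, against the ovary 0.50 and against the head 0.74, none of which passed, and that of 1.25 over the testis had an adjusted p of 0.0640 in limma. SW-20 and SW-72 remained higher past the threshold under each of the 35 alternatives tried.

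SW-17 and SW-41 were weaker. SW-17 gave 1316 and 1760 on the male slides and 549 and 768 on the female slides, against 96.3, 510 and 2351 as lowest, median and highest of the others. SW-41 gave 1001 and 1257 on the male slides and 472 and 676 on the female slides, against 59.3, 445 and 1795 in the others. The male slides were above 1000 and the female slides below it, and the head, the body wall and the malpighian tubule were the other tissues with signals over 1000.

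The difference from the other tissues was 0.80 for SW-17 (SE 0.30, adjusted p = 0.0200 in limma) and 0.76 for SW-41 (SE 0.29, adjusted p = 0.0218 in limma). Without the specimen labelled male these were 0.19 and 0.27, with adjusted p of 0.663 and 0.553, and without the testis the adjusted p of both was 0.0534. Neither passed with net signals, at adjusted p of 0.219 and 0.287 in limma. Both were higher than in the fat body, by 3.15 and 2.95, and lower than in the head, where the differences were -0.997 and -1.04. Across the 18 specimens each was the other's most similar tested probe (r = 0.99). Whether they are replicate probes of the same miRNA was not read from the files, so their calls may not be separate results.

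Of the 40 lower probes, 21 were under 100 on all 4 hemocyte arrays, so the sizes of their differences are set in part by that floor. These sizes are read as at least the values given. The floor also removes the spread between the hemocyte specimens, so the errors and p-values of these probes rest on it too. For 29 of the 55 tested probes the hemocyte mean was the lowest of the 10 tissues, and for 10 the hemocyte was lower than each of the 9 tissues past the threshold. No probe was higher than in each of the 9. Among probes expressed in the hemocyte, 4 were higher, 6 lower and 10 did not pass. Their median difference was -0.33, whereas that of the tested probes not expressed there was -2.09. These sets were split by the hemocyte signal itself, so the gap between their medians was built in.

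SW-27 had the largest negative difference, -4.41 (SE 0.44, adjusted p = 6.06e-08 in limma). It gave 253 and 287 on the male slides and 77.3 and 181 on the female slides, against 1233, 2954 and 52838 as the lowest, median and highest of the others. With every array centred on its median the difference was -0.66 and did not pass (adjusted p = 0.137 in limma). In the scaled signals the groups did not overlap, and SW-27 was lower than each of the 9 tissues, with differences from -2.91 for the anterior silk gland to -7.37 for the malpighian tubule.

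**Figure D4:**
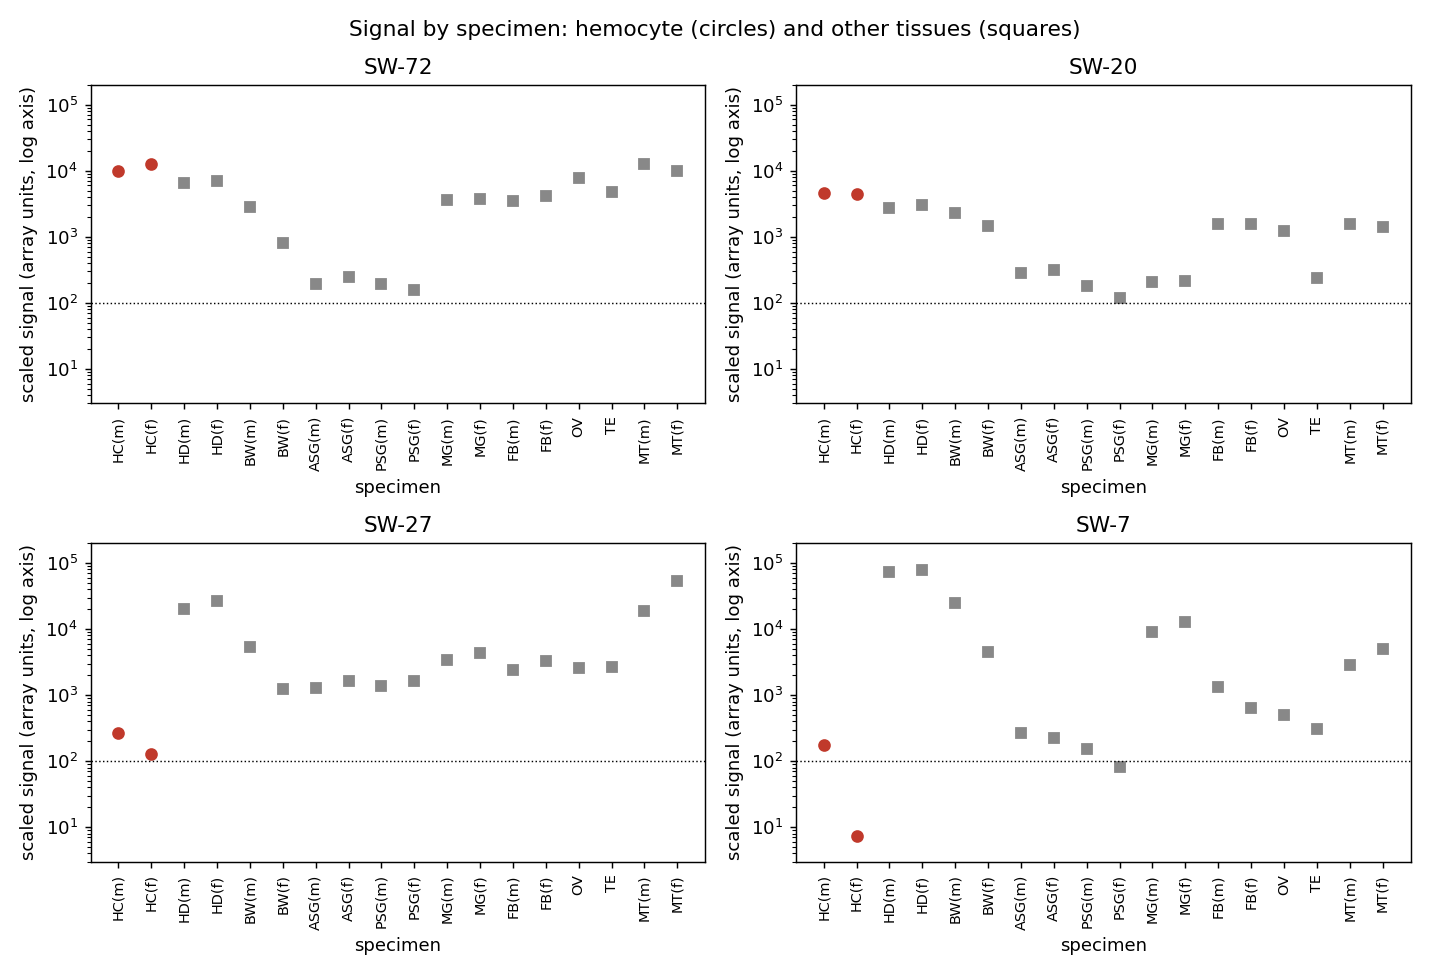
Scaled signal (array units, log axis) of SW-72, SW-20, SW-27 and SW-7 in each of the 18 specimens, with slides averaged. Red circles are the hemocyte specimens and grey squares the other tissues. The dotted line is the floor of 100. SW-20 is above all others in the hemocyte, and SW-72 is matched by the malpighian tubule. In the hemocyte SW-27 lies above the floor, at 129 and 270, and SW-7 lies on either side of it.

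SW-40, SW-75 and SW-1 stayed under 100 on every hemocyte array, SW-52 was at 46.0 and 102 on the female slides and at 30.7 and 111 on the male slides, and each of these probes was lower than all 9 tissues past the threshold. SW-40 gave 10.3 to 55.3 on the hemocyte arrays, against 181 to 7069 in the others, a difference of -4.24 (SE 0.33, adjusted p = 5.76e-09 in limma). SW-75 gave 7.67 to 28.3, against 342 to 8587 in the others, a difference of -3.47. SW-1 gave 17.3 to 90.7, against 269 to 12840, and its difference was -3.32. SW-1 did not pass with median centring, at -0.65 (adjusted p = 0.0844 in limma), nor SW-75 at a floor of 1000, at -0.61 (adjusted p = 0.0849). SW-52 did not pass with median centring either, where its difference turned to 0.10 (adjusted p = 0.742 in limma). The hemocyte specimens did not overlap any other specimen in these 4 probes.

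SW-7, the miR-1 probe, and SW-68 followed the same order of tissues (r = 0.98 over 18 specimens). The difference of SW-7 was -3.70 (SE 0.45, adjusted p = 7.49e-07 in limma), and that of SW-68 was -3.76. SW-68 gave 114 and 165 on the male slides and 14.3 and 8.33 on the female slides, against 92.0 to 30712 in the others. Both probes were far lower in the hemocyte than in the tissues with the brightest signals. With the floor in place the log2 difference of SW-7 was -9.17 from the head and -6.30 from the body wall. Against the silk gland and the testis SW-7 did not pass, at differences of -0.76 for the anterior, 0.10 for the posterior silk gland and -1.23 for the testis.

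SW-106, SW-54 and SW-33 separated the hemocyte from the silk gland and the malpighian tubule. SW-106 gave 8 to 41.0 on the hemocyte arrays, against 56370 and 69961 in the malpighian tubule and 2526 to 4509 in the silk gland. It was at least 627-fold lower than in the malpighian tubule, where its spots were near saturation. Against the ovary and the testis, which were also under 100, no difference could be measured. SW-54 gave 10 to 21.0 and had a difference of -3.20, and SW-33 gave 10 to 28.0 with a difference of -3.55.

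The 6 probes that were lower although expressed in the hemocyte were SW-9, SW-45, SW-38, SW-69, SW-59 and SW-21. SW-45 had a difference of -1.86 (SE 0.44, adjusted p = 0.000817 in limma) and SW-59 of -1.07 (SE 0.33, adjusted p = 0.00706 in limma). SW-59 did not pass without the hemocyte specimen labelled female, at -0.72 (adjusted p = 0.190 in limma), or under quantile normalization, at -0.09 (adjusted p = 0.798). SW-9, named after its values were seen, gave 1191 and 1270 in the hemocyte specimens, against 2088 to 11311 in the others, and had a difference of -2.03. SW-45 and SW-59 turned to positive differences when every array was centred on its median, at 1.97 and 2.77.

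Among the 10 brightest probes, 6 were called neither higher nor lower, namely SW-25 at -0.14, SW-58 at -0.21, SW-55 at 0.29, SW-57 at -0.48, SW-46 at -0.44 and SW-35 at -0.01, with standard errors of 0.28 to 0.35. All of these were higher past the threshold under quantile normalization. SW-57 and SW-46 went the other way in some settings. They were lower past the threshold with net signals, at -0.92 and -0.87 (adjusted p of 0.0429 and 0.0361 in limma), and with 5S scaling. Since 5S was close to saturation on every array, 5S scaling nearly repeats the net signals. Without the female body wall the differences of SW-57 and SW-46 were -0.58 and -0.51.

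The counts of calls differed between the contrasts with single tissues. Over 9 tissues and 55 probes, 35 of 495 pairs were higher in the hemocyte (7.07%) and 277 were lower (56%). Against the malpighian tubule 1 probe was higher and 46 lower, against the head 0 and 49 (none was higher at an unadjusted p under 0.05 in limma either), and against the body wall 2 and 42. These 3 tissues also had the most expressed probes, and the counts are no order of likeness. Against the anterior silk gland the counts were 6 and 30, against the midgut 6 and 26, and against the posterior silk gland 6 and 24. Against the fat body they were 8 and 21, against the ovary 2 and 21, and against the testis 4 and 18, where the ovary and the testis had 1 specimen each and wider errors.

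The fat body bathes in the same hemolymph as the hemocyte and is the larval organ of storage and of much immune protein synthesis. Its contrast gave the most probes higher in the hemocyte, which were SW-17, SW-41, SW-26, SW-35, SW-72, SW-20, SW-21 and SW-55, with differences of 3.15 to 1.04 on the log2 scale. SW-45 was lower than in the fat body, with a difference of -3.61. Against the gonads SW-20 was higher by 1.91 than in the ovary and by 4.25 than in the testis, and SW-55 by 1.43 and 2.21. SW-18, the brightest probe of both gonads, was lower, with differences of -3.65 and -3.81. SW-18, SW-26 and SW-21 were named after their values were seen.

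The share of each probe in the summed signal of its own specimen does not depend on the scale of the array. It does depend on the signal of the dim probes, whose level differed. The median probe signal was 12.8 to 36.0 on the hemocyte arrays and 116.5 to 1446 on the others. SW-72 made up 15.5% in the specimen labelled male and 20.7% in that labelled female, against 0.184% to 7.84% in the others. It ranked first in both hemocyte specimens and no higher than the third place in any other. SW-20 made up 7.31% and 7.30%, against 0.138% to 1.43%, and was the fourth brightest probe of both hemocyte specimens but no better than rank 13 elsewhere. Of the 55 tested probes, 7 had shares in both hemocyte specimens above all 16 others, 17 had shares below all of them and 31 overlapped. The 7 were SW-72, SW-58, SW-25, SW-20, SW-55, SW-17 and SW-41. Of these, only SW-20 also had scaled signals above all 16 others.

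**Figure D5:**
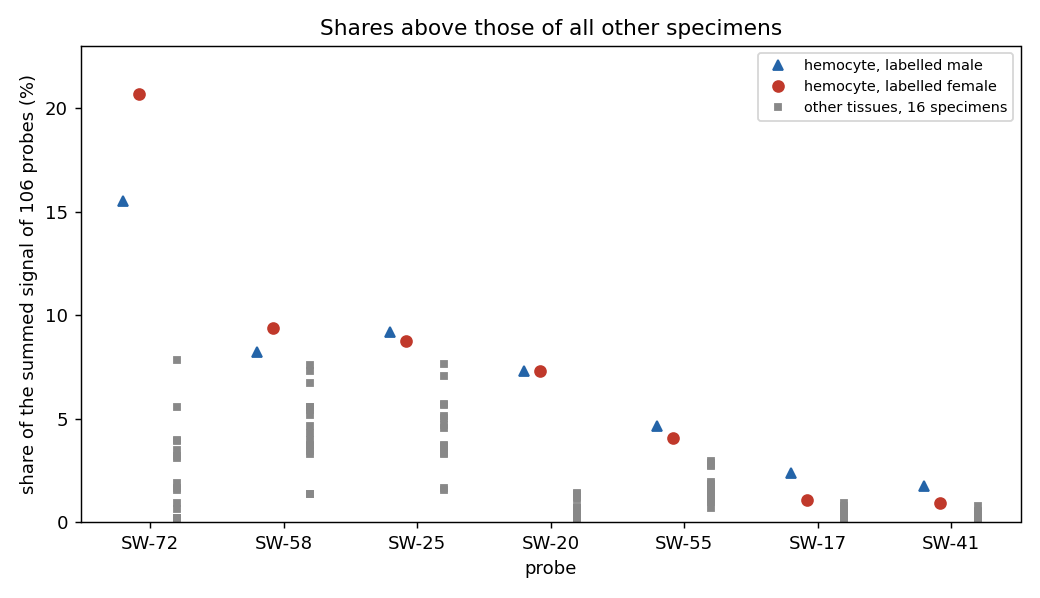
Share of the summed signal of 106 probes, in percent, for the 7 tested probes whose hemocyte shares exceed those of all other specimens. Blue triangles and red circles are the hemocyte specimens labelled male and female, and grey squares the 16 other specimens. SW-72 stands at 15.5% and 20.7% and SW-20 at 7.31% and 7.30%.

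The 5 brightest probes held 44.9% of the summed signal in the specimen labelled male and 51.2% in that labelled female, a mean of 48.0% ± 4.45 (SD, n = 2). In the other specimens the share of their own 5 brightest probes ran from 24.0% in the body wall to 61.4% in the fat body, with a median of 37.3%, so the hemocyte lay within the range. The membership of the 5 differed, since SW-72, SW-25, SW-58 and SW-20 were common to both hemocyte specimens and SW-20 was among the 5 brightest in no other specimen.

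Across the 55 tested probes the mean log2 profile of the hemocyte was most like that of the ovary (Pearson r = 0.81, Spearman rho = 0.80), followed by the testis (r = 0.71) and the fat body (r = 0.68). The head and the body wall followed at 0.53 and 0.51, then the posterior silk gland at 0.45, the anterior silk gland at 0.42, the midgut at 0.41 and the malpighian tubule at 0.35. These values are over probes, which are not independent, and they include the probes near background in several tissues. Over the 20 probes expressed in the hemocyte the values were 0.50 for the ovary, 0.47 for the testis and 0.54 for the fat body, so that the order was not the same.

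A probe was taken as sex-biased when the higher specimen was at 1000 or more and at least 1.5 times the other on both slides. With 1 specimen per sex this has no test. It held for SW-17, SW-41 and SW-59, all higher in the specimen labelled male, and for no probe in the other direction. The male over female ratio on slides a and b was 2.40 and 2.29 for SW-17, 2.12 and 1.86 for SW-41, and 1.56 and 1.68 for SW-59. SW-53 had the lowest ratios, at 0.551 and 0.668, and missed the rule for the female narrowly, on slide b alone. With net signals in place of the scaled ones no probe was higher in the male by this rule, and 9 were higher in the female. The study lists miR-275 and miR-34b as male-biased in hemocytes and let-7a as female-biased. It prints ratios of 2.4 and 2.3 for miR-275 and of 1.6 and 1.7 for miR-34b. The ratios of SW-17 and SW-59 round to these. Those of SW-53, taken as female over male, round to the pair that the study prints for let-7a. SW-53 was named after its values were seen, and the identity of the probes was not tested.

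The log2 male over female ratio of the hemocyte was compared in limma with the average ratio of the 7 further tissues that had both sexes. No probe of 55 passed (0%), and 1 had an unadjusted p under 0.05. With the sexes of the hemocyte exchanged, tried because the zip controls ran against the labels, none passed in limma either, with 4 at an unadjusted p under 0.05. With arrays centred on their median 10 probes passed. For SW-17 the log2 ratio was 1.23 in the hemocyte and 0.14 over the other tissues, a difference of 1.09 with a standard error of 0.57 and an adjusted p of 0.973. The standard errors had a median of 0.64, and the lone hemocyte ratio was assumed to vary like those of the other tissues.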

How the data were processed

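Small RNA was labelled with Cy3 and hybridized to 1-colour oligonucleotide arrays. The authors extracted intensities in LuxScan and corrected them for local background. Spots whose net signal was not above 0 became 10, outlying spots were exchanged, and 1 factor per array, based on U6 and 5S rRNA, scaled the rest. The deposited scaled intensity, averaged over 3 spots per probe, was used. The deposited percent of pixels above background by 2 SD was read only as a check of dim spots. Deposited log2 tables and the series table were not used.

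Signals under 100 were set to 100, taken to log2 and averaged over slides. Tests used limma 3.58.1 in R 4.3.3 (means model, eBayes with trend, Benjamini-Hochberg), tables Python 3.11.15 with pandas 2.3.3. The fit was tested on simulated data. Alternatives were 6 scalings, floors of 10 and 1000, other filters, single slides, and leaving out specimens or tissues. Named probes were those higher, the 10 largest falls, the 10 brightest, the sex-biased and SW-7. The members and lists were chosen with earlier results of these data known. Array number limits the precision. miRNA lists and marker sets were not run, since no table used here pairs probes with miRNAs.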

Additional observations from a re-analysis of the deposited data

Results flagged for a closer look

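In the hemocyte the zip21 over zip23 control ratio was higher in the specimen labelled male, with a male over female quotient of 5.18, while in each of the other 7 tissues with both sexes it was lower in the male specimen. The difference was not tested.

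On the 4 hemocyte arrays, SW-25 was lowest at 4872 on slide a labelled female, and SW-46 was lowest at 2072 on slide a labelled male, each far from the other 3 arrays relative to their range. The arrays are 2 slides each of 2 specimens, and chance gives such a gap in about 1 in 20 groups of values, with 22 probes examined.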

How the results depend on the processing

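Scaling changed most. Centring arrays on their median gave 29 probes higher and 13 lower than the mean of the other tissues, with 261 probe and tissue pairs higher and 95 lower, 43 probes expressed, 18 higher in the female hemocyte and 10 past the sex difference test. Centring on the tested probes gave 25 and 23, pairs of 210 and 154, 35 expressed, 1 higher in the male and 18 in the female, and 14. Quantile normalization gave 16 and 22, pairs of 122 and 155, 32 expressed, 1 and 3, and 3, and an ovary likeness of 0.825. These scalings moved the median difference of the tested probes by 2.91, 2.02 and 1.58. Net signals gave 2 higher, with 0 male and 9 female probes by the ratio rule. Slide a alone gave 2 higher, and 5S scaling, which nearly repeats the net signals, gave 2. A floor of 1000 gave 2 and 21, pairs of 21 and 113, and a likeness of 0.656. A floor of 10 gave 3 past the sex test and a likeness of 0.819. Without a filter 74 were lower, 434 pairs were lower and the likeness was 0.837. The threshold of 2000 left 11 expressed probes, a ratio of 2 left 1 higher in the male, slide b alone gave 1 past the sex test and a likeness of 0.804, leaving out body wall and malpighian tubule gave 3 past the sex test, and the 10 brightest probes held 66.5%.

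SW-41 turned to -0.0624 at a floor of 1000. With median centring SW-52 turned to 0.10, SW-45 to 1.97 and SW-59 to 2.77, and with centring on the tested probes SW-45 turned to 1.07 and SW-59 to 1.86. Over the 22 named probes and their alternatives, 722 values stayed on their side of the threshold, 17 lost it, 25 gained it and 6 turned. The causes were not tested. Sex as replicate block gave 4 higher and 40 lower, as without it, with pairs of 35 and 278, against 277 lower pairs without it.

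Leaving out 1 specimen gave 2 to 5 probes higher and 35 to 44 lower, 28 to 50 pairs higher and 240 to 306 lower, and 0 past the sex test. The 2 higher came without the testis or without the hemocyte labelled male, where SW-17 and SW-41 lost their calls. The ovary and the testis, and the hemocyte with 1 specimen left out, were assumed to vary like the other tissues. Signal near background limits what dim hemocyte probes can show. The alternatives of the sex test other than median centring, floors, filters and left-out specimens or tissues were chosen after seeing the data.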

Other observations

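SW-13 stayed under 1000 in both hemocyte specimens and was left out of the test by the filter, and it was looked at after its values were seen. It gave 735 and 1018 on the slides labelled male and 626 and 759 on those labelled female, against 16.7, 172 and 1145 as the lowest, median and highest of the 16 other specimens. Only both head specimens and the female malpighian tubule lay in or above the hemocyte range. Without a filter on dim probes its log2 difference from the mean of the other tissues was 1.97 (SE 0.32, adjusted p = 2.32e-05 in limma), and its share of the summed signal, 1.37% and 1.14%, was above the 0.0152% to 0.300% of all others.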
